A study of Saccharomyces cerevisiae with 36 samples.

Results

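The genes described here are 10 genes of purine synthesis and salvage in budding yeast (Saccharomyces cerevisiae): ADE1, ADE2, ADE4, ADE12, ADE13, ADE16, ADE17, AAH1, HPT1 and IMD2. They were picked by name from a deposited table of 7126 genes, and all 10 were among the 6109 genes that passed a filter on low counts. The choice was made with results of these data known. It gave weight to ADE17 for its level in HSF1+ against hsf1∆ cells, and to AAH1 and HPT1 for their levels after azetidine-2-carboxylic acid (AzC). Those contrasts are therefore described here without a test, as is ADE17 wherever untreated HSF1+ or hsf1∆ libraries enter. The heat-shock contrasts, the untreated contrasts with the wild type (WT) and the differences between strains in the heat-shock response were tested. For AAH1 and HPT1 these tests use untreated libraries that also enter the AzC contrasts they were chosen on. Their p-values, and the counts of members that include them, are therefore not independent of that choice.

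The series holds 36 RNA libraries, from 12 groups of 3, that combine 4 strains with 3 conditions. All strains were haploid of mating type a and carried his3∆1, leu2∆0, ura3∆0 and met15∆0, and WT carried nothing further. In hsf1∆ cells the gene of heat shock factor Hsf1 was replaced by a cassette with YDJ1, HSC82 and SSA2 under the ADH1, TEF1 and TDH3 promoters and the kanMX marker, reading the letter D where the genotype labels print a delta sign. These genes encode chaperones and keep the cells alive without Hsf1. HSF1+ cells carried the same cassette together with HSF1+ and LYS2, so the HSF1+ and hsf1∆ strains share the cassette but differ at LYS2 as well as HSF1. The fourth strain was labelled msn2::hphMX4 msn4::natMX4, disruptions of the genes of the general stress factors Msn2 and Msn4, and is called labelled msn2/4∆. Cells were grown in rich YPD medium at 25 °C to an OD600 of 0.8. One set stayed untreated, heat shock was 15 min at 37 °C, and AzC was given at 10 mM for 1 h, still at 25 °C. Cells incorporate AzC as if it were proline, and the resulting proteins misfold.

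Purine nucleotides are made in yeast along a de novo pathway that builds inosine monophosphate (IMP) on phosphoribosyl pyrophosphate (PRPP), and along salvage routes that attach ready bases to PRPP. IMP is the branch point from which AMP and GMP are made. The transcription factors Bas1 and Pho2 are known to activate the ADE genes when adenine is scarce, in response to intermediates of the pathway itself. Rich medium supplies purine bases to the salvage routes.

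Positions below are of build R64, and each gene is a single uninterrupted coding stretch that overlaps no other annotated gene. ADE4 (YMR300C, chromosome XIII, 865559 to 867091) encodes the PRPP amidotransferase, which takes the first committed step. ADE2 (YOR128C, chromosome XV, 564476 to 566191) encodes the carboxylase of the imidazole ring intermediate, and ADE1 (YAR015W, chromosome I, 169375 to 170295) the SAICAR synthetase that acts after it. ADE13 (YLR359W, chromosome XII, 844282 to 845730) encodes adenylosuccinate lyase, which works both on the way to IMP and on the way from IMP to AMP. ADE16 (YLR028C, chromosome XII, 199540 to 201315) and ADE17 (YMR120C, chromosome XIII, 507502 to 509280) encode isozymes of the bifunctional enzyme that closes the second ring to give IMP. ADE12 (YNL220W, chromosome XIV, 234413 to 235714) encodes adenylosuccinate synthase, the entry to AMP. IMD2 (YHR216W, chromosome VIII, 554396 to 555967) encodes an IMP dehydrogenase, the entry to GMP. AAH1 (YNL141W, chromosome XIV, 359596 to 360639) encodes adenine deaminase, which turns adenine into hypoxanthine. HPT1 (YDR399W, chromosome IV, 1270068 to 1270733) encodes the phosphoribosyltransferase that turns hypoxanthine and guanine into IMP and GMP.

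ADE16 and ADE17 lie downstream of the paralogous ribosomal protein genes RPL15A and RPL15B, on the same strand, with 660 and 453 bases between. Their coding sequences were 74.8% identical over 1776 aligned bases, with a longest shared run of 19 bases. The promoters of the 2 isozyme genes are shown because ADE16 and ADE17 received different calls after heat shock in WT, and those of ADE1 and ADE2 because each carries a repeated motif. Capitals mark TGACTC on either strand, the core that Bas1 and Gcn4 recognise, in a window from 250 bases before the start codon to 50 bases from it (RefSeq, R64).
ADE17 promoter, chrXIII:509231-509530, minus strand: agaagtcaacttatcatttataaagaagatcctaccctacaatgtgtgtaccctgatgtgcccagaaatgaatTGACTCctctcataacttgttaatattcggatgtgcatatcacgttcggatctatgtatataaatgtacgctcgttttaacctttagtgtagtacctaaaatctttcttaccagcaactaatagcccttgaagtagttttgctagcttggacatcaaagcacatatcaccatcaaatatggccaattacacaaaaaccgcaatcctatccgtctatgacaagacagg
ADE16 promoter, chrXII:201266-201565, minus strand: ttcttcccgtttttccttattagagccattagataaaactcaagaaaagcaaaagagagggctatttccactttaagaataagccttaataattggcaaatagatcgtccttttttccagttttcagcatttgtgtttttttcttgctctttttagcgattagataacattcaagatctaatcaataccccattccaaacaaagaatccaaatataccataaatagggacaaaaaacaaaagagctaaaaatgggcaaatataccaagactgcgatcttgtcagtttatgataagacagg
ADE1 promoter, chrI:169125-169424, plus strand: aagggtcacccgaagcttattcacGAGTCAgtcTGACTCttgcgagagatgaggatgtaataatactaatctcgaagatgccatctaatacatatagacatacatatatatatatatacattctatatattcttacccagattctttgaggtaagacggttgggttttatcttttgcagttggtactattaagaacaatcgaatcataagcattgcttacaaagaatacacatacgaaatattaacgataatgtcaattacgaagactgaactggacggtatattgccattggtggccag
ADE2 promoter, chrXV:566142-566441, minus strand: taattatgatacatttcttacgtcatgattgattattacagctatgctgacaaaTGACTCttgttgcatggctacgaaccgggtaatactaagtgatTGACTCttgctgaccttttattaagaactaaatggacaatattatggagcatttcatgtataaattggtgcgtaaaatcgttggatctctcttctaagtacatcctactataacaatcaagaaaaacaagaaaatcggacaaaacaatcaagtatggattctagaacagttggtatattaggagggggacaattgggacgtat
The ADE17 window held 1 match, starting 177 bases before the start codon, and the ADE16 window held none. ADE1 and ADE2 each held 2 matches, and ADE12 and ADE13 held 1 each, while ADE4, AAH1, HPT1 and IMD2 held none. Of 6001 promoters of that length, 7.98% held TGACTC. A match is a run of letters and not evidence of binding.

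The AAH1 and HPT1 promoters are shown because these genes had the lowest log2 changes after both treatments in WT. Capitals mark GATGAG (the motif named PAC) and AAAATTT (the core of the motif named RRPE) on either strand. Both are known from promoters of ribosome biogenesis genes.
AAH1 promoter, chrXIV:359346-359645, plus strand: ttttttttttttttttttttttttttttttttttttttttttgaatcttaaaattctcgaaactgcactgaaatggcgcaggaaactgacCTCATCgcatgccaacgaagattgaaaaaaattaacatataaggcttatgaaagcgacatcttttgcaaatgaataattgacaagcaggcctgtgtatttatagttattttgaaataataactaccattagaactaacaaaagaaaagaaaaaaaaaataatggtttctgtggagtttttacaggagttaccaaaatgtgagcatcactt
HPT1 promoter, chrIV:1269818-1270117, plus strand: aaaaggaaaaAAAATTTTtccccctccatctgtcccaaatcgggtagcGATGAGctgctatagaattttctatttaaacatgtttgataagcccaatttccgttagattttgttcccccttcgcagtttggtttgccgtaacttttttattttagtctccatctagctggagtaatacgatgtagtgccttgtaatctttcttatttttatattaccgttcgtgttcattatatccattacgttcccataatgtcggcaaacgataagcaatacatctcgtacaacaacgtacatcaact
GATGAG was found at -160 in AAH1 and at -202 in HPT1, counted from the start codon, and in 20.4% of all promoters. AAAATTT was found in HPT1, as overlapping matches on the 2 strands, and in 23.2% of all promoters. Of the other members, ADE1 held GATGAG at -203 and ADE12 at 33, past the start codon, and ADE4 and ADE13 held AAAATTT. The stress response element AGGGG and the heat shock element pairs GAANNTTC and TTCNNGAA were searched too and are not marked. HPT1 held AGGGG at -230 and -135 and GAANNTTC at -188, and AAH1 held TTCNNGAA at -197. These motifs were in 21.6%, 11.8% and 12.9% of all promoters. ADE2 held AGGGG at 29 and TTCNNGAA at 5, both past the start codon and so not upstream of the gene. ADE12 held AGGGG at -40, and the remaining members held none.

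Total counts ran from 8159203 to 99558095 per library (median 13193876), and 4 libraries were far deeper than the rest (WT untreated replicates 2 and 3, HSF1+ AzC replicates 1 and 2). Levels are counts scaled to library size and TMM factors (CPM), with the SD of 3 libraries. Untreated HSF1 was at 98.4 CPM in WT, 55.4 in HSF1+ and 14.6 in hsf1∆. MSN2 was at 132.4 CPM in WT and 1.41 in the labelled msn2/4∆ strain, but MSN4 was at 38.4 and 52.9, so the MSN4 transcript was not lost there. The 7 markers of a cells summed to between 353 and 2243 CPM over the groups. The 5 markers of alpha cells summed to between 51.0 and 98.9 CPM, with MATALPHA1, MF(ALPHA)1 and MF(ALPHA)2 under 1 CPM in all groups. The other alpha markers, SAG1 and STE3, were detected, at 57.3 and 4.13 CPM in untreated WT and at 92.9 and 4.80 in untreated hsf1∆. In bulk RNA such a level cannot tell fewer cells of a type from less RNA per cell.

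In untreated WT, compared per kilobase of coding length, HPT1 was highest at 623 ± 51.1 CPM per kb and IMD2 lowest at 84.8 ± 2.15 (n = 3). ADE13 was next at 429 ± 4.46, and ADE17 stood at 256 ± 35.9 beside 203 ± 26.8 for ADE16. Over the 12 groups, mean AAH1 differed most, by a factor of 83.9 between untreated WT and heat-shocked hsf1∆. The factor was 17.9 for HPT1, 13.5 for ADE17 and 7.69 for IMD2, and between 3.08 and 3.96 for the other 6 genes. In the order of AAH1 group means, 2 of 11 neighbouring pairs did not overlap: untreated labelled msn2/4∆ over untreated HSF1+, and untreated HSF1+ over untreated hsf1∆. In the order of ADE17 means 5 of 11 did not, among them untreated HSF1+ over heat-shocked labelled msn2/4∆, which in turn stood over untreated WT.

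**Figure D1:**
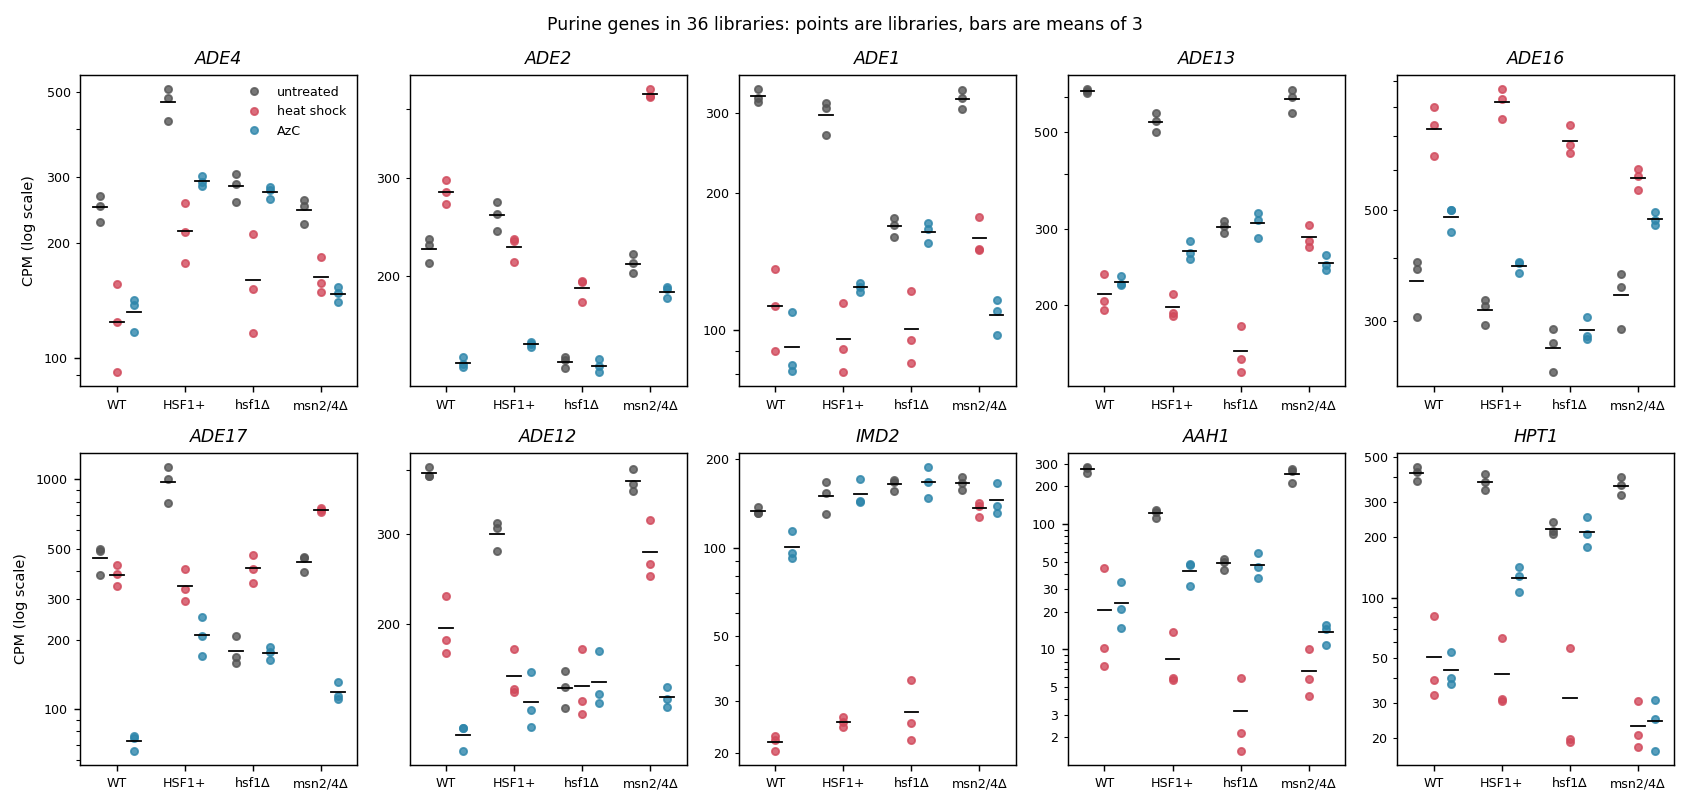
CPM of each of the 10 purine genes (vertical axis, log scale, 1 panel a gene) in 4 strains (horizontal axis) and 3 conditions (colours). Points are libraries and bars are means of 3; AAH1 and HPT1 are low after heat shock in every strain, and IMD2 is low after heat shock in 3 strains but lies between 127.3 and 142 CPM in the labelled msn2/4∆ strain.

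Heat shock in WT asks how the pathway stood 15 min after a shift to 37 °C. Of the 10 genes, 2 rose, 7 fell and 1 did not pass (edgeR quasi-likelihood test, adjusted p below 0.05), where 42.0% of all tested genes rose and 38.1% fell. With at least a 2-fold change 1 rose and 7 fell (19.3% and 17.3% of all genes). The median of the 10 log2 changes was -1.27, beside 0.05 for all genes. The genes that rose were ADE2 and ADE16, both of the de novo route. ADE17, of the same route, did not pass, and the other 7 genes fell.

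Among the 10 genes, the largest falls were those of AAH1 and HPT1, both of salvage. The wider salvage list, given below, was mixed. AAH1 was at 277, 283 and 252 CPM in untreated WT replicates 1 to 3, and at 44.5, 10.3 and 7.37 after heat shock. The groups did not overlap, and replicate 1 of the heat-shocked libraries was the highest. The log2 change was -3.73 ± 0.45 (± standard error, edgeR adjusted p = 1.31e-08), and -4.94 without that library. HPT1 was at 446, 379 and 420.0 CPM untreated and at 81.1, 38.9 and 32.9 after heat shock. Again replicate 1 kept more of the transcript than the others, and the log2 change was -3.03 ± 0.35 (edgeR adjusted p = 5.2e-09). Heat-shocked replicate 1 libraries had the highest AAH1 and HPT1 in all 4 strains. The p-values of these genes use untreated libraries of the AzC contrasts they were chosen on.

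On the way from IMP to GMP, IMD2 was at 131.4, 137 and 131.2 CPM in untreated WT and at 22.9, 22.2 and 20.4 after heat shock. These libraries were close to each other and far from the untreated ones, with a log2 change of -2.61 ± 0.13 (edgeR adjusted p = 1.66e-16). On the way to AMP, ADE12 went from 406, 390 and 389 CPM to 227, 186 and 175, a log2 change of -1.01 ± 0.12. It fell without overlap (edgeR adjusted p = 6.67e-09).

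In the de novo route, ADE4, at the entry, fell by 1.005 ± 0.163 on the log2 scale, from 249 ± 19.8 to 124.1 ± 32.3 CPM (n = 3). ADE1 fell by 1.53 ± 0.14 and ADE13 by 1.55 ± 0.08. ADE2, whose step lies between those of ADE4 and ADE1, rose instead, by 0.34 ± 0.05 (edgeR adjusted p = 1.23e-06). ADE16 was at 306, 382 and 394 CPM untreated and at 638, 735 and 799 after heat shock. All 3 heat-shocked libraries were above all untreated ones, a log2 change of 1.01 ± 0.10 (edgeR adjusted p = 1.99e-10). ADE17, its isozyme gene, was at 383, 488 and 498 CPM untreated and at 424, 386 and 344 after heat shock. These groups overlapped, and the log2 change was -0.25 ± 0.14 (edgeR adjusted p = 0.117). With replicates 2 and 3 alone it was -0.43 and passed (edgeR adjusted p = 0.00318), and it also passed without untreated WT replicate 1 (-0.36).

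**Figure D2:**
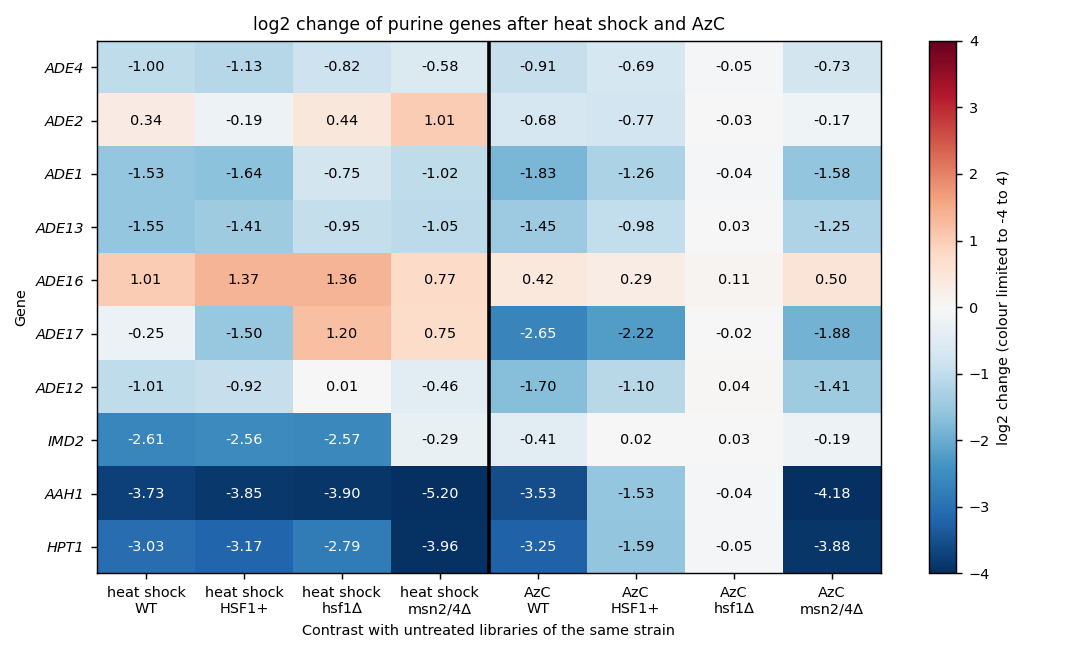
log2 change against untreated cells of the same strain for each gene (rows), after heat shock (left 4 columns) and AzC (right 4 columns) in the 4 strains, from the edgeR fit, with colours limited to -4 to 4. AAH1 and HPT1 have the lowest values in all columns but AzC in HSF1+, where ADE17 is lowest (-2.22), and AzC in hsf1∆. ADE16 is positive throughout, and the hsf1∆ AzC column lies between -0.05 and 0.11.

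In the other strains heat shock gave the same direction for 7 genes. ADE1, ADE4, ADE13, AAH1, HPT1 and IMD2 fell in all 4 strains, and ADE16 rose in all 4, while ADE2 and ADE12 received different calls. The share of all genes that kept the same direction in all 4 strains is not given, so this agreement cannot be set against it. In HSF1+ cells 1 of 9 tested genes rose and 8 fell (40.0% and 36.5% of all genes), and past 2-fold 1 and 6 (15.0% and 15.5%). In hsf1∆ cells 2 of 9 rose, 6 fell and 1 did not pass (38.2% and 38.4% of all genes), and past 2-fold 1 and 3 (14.8% and 17.4%). Labelled msn2/4∆ cells had 3 that rose and 7 that fell (43.5% and 34.0% of all genes), and past 2-fold 1 and 4 (16.9% and 15.7%). The medians of all 10 genes were -1.46 in HSF1+, -0.79 in hsf1∆ and -0.52 in the labelled msn2/4∆ strain, where all genes had medians of 0.03, -0.01 and 0.11.

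AAH1 fell to the lowest level in heat-shocked hsf1∆ cells, with 5.96, 1.56 and 2.15 CPM against 52.0, 49.7 and 43.2 untreated, a log2 change of -3.90 ± 0.51. Without replicate 1 of the heat-shocked libraries it was -4.63, and the HPT1 change of -2.79 became -3.43. In HSF1+ cells AAH1 went from 129.1, 124.6 and 111.5 to 13.7, 5.68 and 5.87 CPM, a log2 change of -3.85 ± 0.47. In the labelled msn2/4∆ strain it went from 261, 271 and 212 to 10.1, 4.27 and 5.85 CPM, a log2 change of -5.20 ± 0.49. AAH1, and with it the mRNA of adenine deaminase, fell in all 4 strains. The AAH1 response did not pass a test of difference from WT in any of these strains, with differences of -0.11 ± 0.61 for HSF1+, -0.17 ± 0.66 for hsf1∆ and -1.46 ± 0.62 for labelled msn2/4∆ (edgeR adjusted p = 0.924, 0.885 and 0.0739). With the replicate number as a block the last one passed (-1.36, edgeR adjusted p = 0.0275), and without WT heat-shocked replicate 1 it was -0.26 (edgeR adjusted p = 0.745). Without that WT library the other AAH1 differences changed sign, to 1.10 for HSF1+ and 1.04 for hsf1∆, and neither passed (edgeR adjusted p = 0.119 and 0.147). The HPT1 difference of -0.93 ± 0.46 in that strain also passed under the block (-0.89, edgeR adjusted p = 0.0367, against 0.131 without it).

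Among the differences from the WT response to heat shock, that of IMD2 was the largest of the 10 genes. Labelled msn2/4∆ cells had IMD2 at 158, 174 and 166 CPM untreated and at 139, 142 and 127.3 after heat shock. The groups came close to each other without overlap, and the log2 change was -0.29 ± 0.12 (edgeR adjusted p = 0.0333). That small fall did not pass under scaling by library size alone (-0.13, edgeR adjusted p = 0.293) or with any of 4 of the 6 libraries left out. Heat-shocked IMD2 was at 26.5, 25.5 and 24.6 CPM in HSF1+ and at 22.2, 25.3 and 35.5 in hsf1∆, close to WT. The response in the labelled msn2/4∆ strain exceeded that in WT by 2.33 ± 0.18 on the log2 scale (edgeR adjusted p = 6.16e-11). For hsf1∆ and HSF1+ the differences were 0.04 ± 0.18 and 0.05 ± 0.18 (edgeR adjusted p = 0.897 and 0.876).

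IMD2 has close paralogs, IMD3 and IMD4, which also encode IMP dehydrogenase. IMD3 fell by 2.71 ± 0.25 on the log2 scale in WT and by 2.80 ± 0.26 in the labelled msn2/4∆ strain, and IMD4 by 3.10 ± 0.32 and 3.58 ± 0.33. IMD2 was 11.7% of the summed per-kilobase level of the 3 genes in heat-shocked WT and 49.4% in the heat-shocked labelled msn2/4∆ strain, against 9.85% and 11.9% untreated. IMD4 was divided by the 1983 bases from its start to its end, although its coding sequence has 1575. Its level is therefore understated and the IMD2 shares are overstated. The IMD2 coding sequence was 88.9% identical to IMD3, with a longest shared run of 94 bases, and 79.2% identical to IMD4. The sources used here do not say how reads shared by such pairs were counted. IMD1 stayed under 3 CPM in every group.

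**Figure D3:**
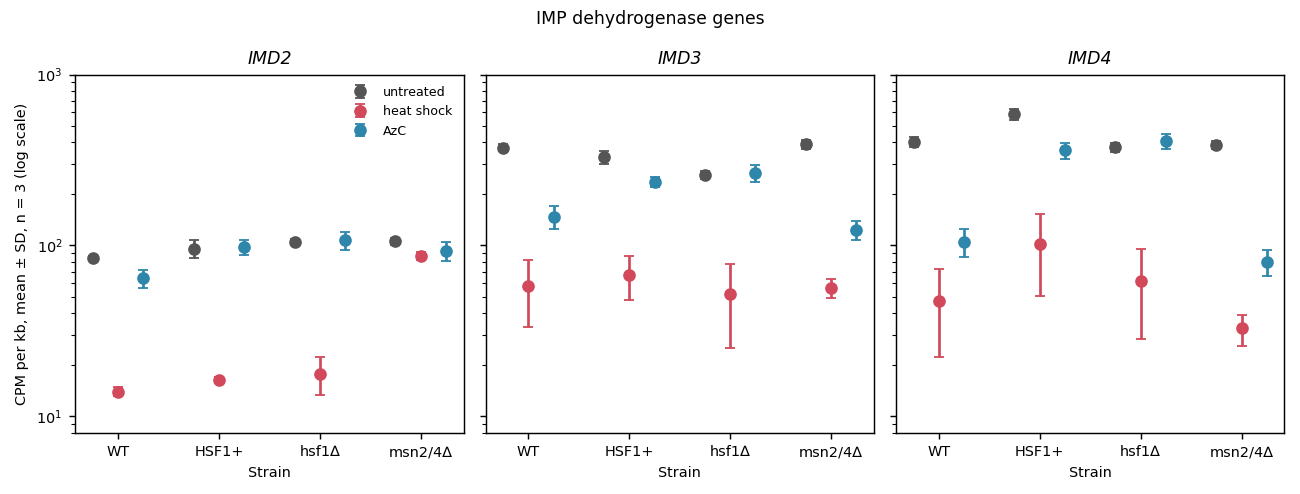
CPM per kilobase (vertical axis, log scale) of the IMP dehydrogenase genes IMD2, IMD3 and IMD4 by strain (horizontal axis) and condition (colours), as mean ± SD of 3 libraries. Lengths are coding lengths for IMD2 and IMD3, and for IMD4 the 1983 bases from start to end, of which 1575 are coding. After heat shock IMD2 is at 86.5 CPM per kb in the labelled msn2/4∆ strain and at 13.9 in WT, while IMD3 is at 56.1 and 57.4.

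The de novo genes also responded differently between strains. Against WT, 6 of the 10 responses were higher in the labelled msn2/4∆ strain, where 16.3% of all genes had a higher response and 13.9% a lower one. That split, 995 and 847, was 607 and 825 with only the groups compared. The 6 genes were IMD2, ADE17 (0.995 ± 0.204), ADE2 (0.67 ± 0.07), ADE12 (0.55 ± 0.16), ADE1 (0.52 ± 0.19) and ADE13 (0.50 ± 0.11). With the replicate number as a block all 10 passed, 7 higher and 3 lower, where 1269 of all genes were higher and 1138 lower. Without the block 1 member passed with at least a 2-fold difference, on the higher side (1.46% of all genes higher, 4.29% lower). The ADE1 difference (edgeR adjusted p = 0.0392) no longer passed with any of 8 of the 12 libraries left out. ADE17 itself went from 395, 460 and 455 CPM to 747, 720 and 733 in this strain, a rise without overlap of 0.75 ± 0.15 on the log2 scale (edgeR adjusted p = 3.52e-05). ADE2 went from 219, 211 and 202 to 435, 422 and 421 CPM, a rise of 1.01 ± 0.05.

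In hsf1∆ cells 4 of the 9 tested responses were higher than in WT (11.8% of all genes were higher and 20.9% lower), and 1 past 2-fold (1.80% and 5.53%). The split of all genes, 721 higher and 1274 lower, was 773 and 680 with only the groups compared and 958 and 990 with RLE size factors. The 4 genes were ADE12 (1.02 ± 0.16), ADE1 (0.78 ± 0.19), ADE13 (0.60 ± 0.11) and ADE16 (0.36 ± 0.14). The ADE16 difference had an edgeR adjusted p = 0.0438 and no longer passed with any of 5 of the 12 libraries left out. ADE12 stood at 162, 151 and 137 CPM in untreated hsf1∆ cells and at 178, 142 and 133.5 after heat shock, overlapping groups with a log2 change of 0.01 ± 0.12 (edgeR adjusted p = 0.922). ADE17 went from 169, 209 and 159 CPM to 470.1, 406 and 353 there, without overlap, a log2 change of 1.197 ± 0.147 that was not tested. In HSF1+ cells 1 of 9 tested responses differed from WT, that of ADE2, at -0.53 ± 0.08 (edgeR adjusted p = 1.56e-05, with 4.21% of all genes higher and 7.56% lower). It was not 2-fold, a size that 0.655% of all genes passed on the higher and 2.06% on the lower side. With the replicate number as a block the ADE16 response passed as well (0.37, edgeR adjusted p = 0.00357, against 0.0766 without it). Among all genes called in that comparison 35.7% were higher, 11.2% when counts were scaled by library size only and 22.1% with only the groups compared.

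Without treatment the strains differed as follows. In hsf1∆ cells 7 of 9 tested genes were lower than in WT and 1 was higher, while 30.6% of all genes were higher and 28.1% lower. Past 2-fold 3 members were lower, ADE12, ADE13 and AAH1, beside 4.08% of all genes lower and 7.64% higher. AAH1 was lowest against WT, at 52.0, 49.7 and 43.2 CPM, all below the WT libraries of 277, 283 and 252. The log2 difference was -2.49 ± 0.42 (edgeR adjusted p = 9.13e-06). AAH1 and HPT1 were chosen on AzC contrasts that share these untreated libraries. Their p-values, and the counts here that include them, are not independent of that choice. ADE12 differed by -1.40 ± 0.12, ADE13 by -1.03 ± 0.08, ADE1 by -0.95 ± 0.13, HPT1 by -0.92 ± 0.32, ADE2 by -0.67 ± 0.05 and ADE16 by -0.44 ± 0.10. HPT1 did not pass under scaling by library size alone (-0.73, edgeR adjusted p = 0.0615). IMD2 was higher by 0.30 ± 0.12 (edgeR adjusted p = 0.0319), a call lost with any of 5 of the 6 libraries left out. ADE4 did not pass (0.19 ± 0.16). Scaling by library size alone moved the median of all genes from -0.03 to 0.16 and the split from 1872 higher and 1716 lower to 2508 and 873. The direction of none of these 9 differences reversed under that scaling.

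In untreated HSF1+ cells 2 of 9 tested genes were higher than in WT and 3 lower (17.5% and 12.6% of all genes, or 1241 and 477 genes under scaling by library size alone against 1072 and 771). Past 2-fold 1 member, AAH1, was lower (2.21% of all genes lower, 5.24% higher). ADE4 was at 485, 511 and 419 CPM, above the WT libraries of 251, 267 and 228, by 0.92 ± 0.16 (edgeR adjusted p = 4.27e-05). ADE2 was higher by 0.20 ± 0.05. ADE12 was lower at -0.39 ± 0.12, ADE13 at -0.24 ± 0.08 and AAH1 at -1.15 ± 0.39. AAH1 was at 129.1, 124.6 and 111.5 CPM without overlap with WT (edgeR adjusted p = 0.0262), but the call was lost with any of 5 of the 6 libraries left out. That p-value, too, is not independent of how AAH1 was chosen. With the replicate number as a block ADE16 passed too (-0.19, edgeR adjusted p = 0.0182). Untreated labelled msn2/4∆ cells differed from WT in 0 of 10 genes by edgeR or by DESeq2, with 0.262% of all genes higher and 0.786% lower, and 1 member had an unadjusted p below 0.05.

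ADE17 separated HSF1+ from hsf1∆ cells most without treatment, which is the contrast it was chosen for. It was at 792, 1132 and 1007 CPM in HSF1+ cells, at 169, 209 and 159 in hsf1∆ cells and at 383, 488 and 498 in WT. The HSF1+ libraries were above all WT libraries, and the hsf1∆ libraries below them. The log2 difference of hsf1∆ from HSF1+ was -2.45 ± 0.15, and the differences from WT were 1.10 ± 0.15 for HSF1+ and -1.35 ± 0.15 for hsf1∆. Among all genes, 1.87% were at least 2-fold lower in untreated hsf1∆ than in HSF1+ cells and 2.55% were higher. The other members at least 2-fold lower were ADE12 (-1.005 ± 0.117) and AAH1 (-1.33 ± 0.41).

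After either treatment the ADE17 gap was small. With heat shock HSF1+ cells had 408, 333 and 294 CPM and hsf1∆ cells 470.1, 406 and 353, overlapping groups with a log2 difference of 0.25 ± 0.14. Within each replicate number the hsf1∆ library was the higher of the pair. After AzC HSF1+ cells had 170, 207 and 251 CPM and hsf1∆ cells 187, 164 and 177, again overlapping, at -0.25 ± 0.14. With heat shock ADE17 stood at -1.502 ± 0.147 in HSF1+ cells on the log2 scale, and above 0 in hsf1∆ cells as given. The difference between those responses was 2.70 ± 0.21, and none of these values was tested.

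The balance of the isozyme genes also varied between groups. Per kilobase, ADE17 over ADE16 was 1.26 ± 0.014 in untreated WT, 0.539 ± 0.118 after heat shock and 0.150 ± 0.0037 after AzC (n = 3). In HSF1+ cells the ratio was 3.08 ± 0.42 untreated, 0.425 ± 0.102 after heat shock and 0.540 ± 0.095 after AzC. In hsf1∆ cells it was below 1 in all 9 libraries, with means of 0.675, 0.602 and 0.612. In the labelled msn2/4∆ strain it was 1.30 untreated and 1.27 after heat shock, the only strain with heat-shocked libraries above 1, and 0.247 after AzC. A ratio of 2 transcripts shows unequal levels and not which of them moved.

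**Figure D4:**
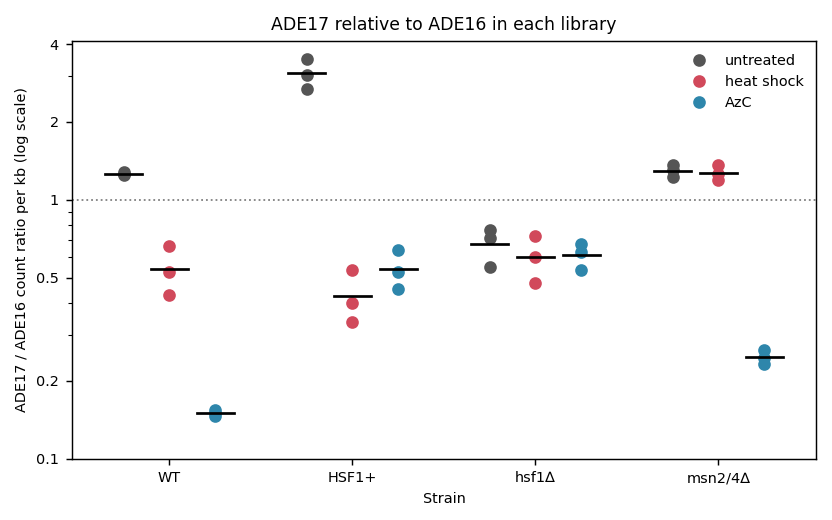
Ratio of ADE17 to ADE16 counts per kilobase of coding length (vertical axis, log scale) in each library by strain (horizontal axis) and condition (colours), with bars at the means of 3 and a dotted line at 1. Untreated HSF1+ libraries lie between 2.69 and 3.52 and WT AzC libraries between 0.146 and 0.153.

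After AzC the levels are described without a test, since AAH1 and HPT1 were chosen on them. In WT 6 of 10 genes were at least 2-fold lower and none was 2-fold higher, where 11.3% of all genes were 2-fold lower and 10.3% higher. AAH1 was at 34.3, 20.9 and 14.7 CPM, far below the untreated 277, 283 and 252 (log2 change -3.53 ± 0.44). HPT1 was at 53.7, 37.2 and 39.9 CPM against 446, 379 and 420.0 (-3.25 ± 0.35). ADE17 was at 65.9, 76.6 and 75.0 CPM (-2.65 ± 0.15). These 3 genes had the lowest changes, and no AzC library overlapped an untreated one. ADE1 stood at -1.83 ± 0.14, ADE12 at -1.70 ± 0.12 and ADE13 at -1.45 ± 0.08, while ADE4, ADE2 and IMD2 stood at -0.91, -0.68 and -0.41. ADE16 was the single positive value, at 0.42 ± 0.10.

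In hsf1∆ cells the AzC and untreated libraries overlapped for all 10 genes. The median log2 change of all genes there was 0.004, and the share of all genes that overlapped is not given. The log2 changes lay between -0.05 and 0.11, and 0 of 10 were 2-fold changed, where 0.491% of all genes were 2-fold lower and 0.769% higher. AAH1 was at 58.4, 37.0 and 45.5 CPM after AzC against 52.0, 49.7 and 43.2 untreated. HPT1 was at 251, 179 and 208 CPM against 237, 215 and 208. In HSF1+ cells 5 of 10 were at least 2-fold lower (1.46% of all genes lower, 4.06% higher). ADE17 stood at -2.22 ± 0.15, HPT1 at -1.59 ± 0.32, AAH1 at -1.53 ± 0.40, ADE1 at -1.26 ± 0.14 and ADE12 at -1.10 ± 0.12. The levels HSF1+ cells reached for AAH1, 48.1, 31.9 and 46.6 CPM, overlapped those of hsf1∆ cells. For AAH1 the HSF1+ and hsf1∆ groups thus differed before AzC and overlapped after it.

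AzC left 6 of 10 genes at least 2-fold lower in the labelled msn2/4∆ strain (12.6% of all genes lower, 11.3% higher). AAH1 stood at -4.18 ± 0.46, with 14.5, 10.8 and 15.6 CPM, and HPT1 at -3.88 ± 0.36, with 25.0, 17.4 and 31.2 CPM. ADE17 stood at -1.88 ± 0.15, and its response exceeded that of WT by 0.77 ± 0.21. IMD2, at 166, 131.6 and 138 CPM, overlapped its untreated libraries. The AzC and heat-shock contrasts of a strain share their untreated libraries.

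Genes whose pattern was most like that of the leading members were ranked by Pearson's r of log CPM over the 12 group means, among 5230 genes with at least 10 CPM on average. For ADE17 they were SHM2 (0.916), YSW1 (0.901), EAF6 (0.867), MMS1 (0.846) and GPP1 (0.845). SHM2 encodes the cytosolic serine hydroxymethyltransferase, a source of the one-carbon units that purine synthesis uses. For AAH1 they were HKR1 (0.987), EGD1 (0.986), ARO3 (0.984), SUI3 (0.979) and RPC10 (0.979), and for HPT1 ICE2 (0.994), GCD14 (0.992), SAP185 (0.992), PNO1 (0.991) and BUD21 (0.991). Among members, r was 0.965 for ADE1 with ADE13 and 0.929 for AAH1 with HPT1. It was -0.856 for ADE16 with IMD2 and 0.108 for ADE16 with ADE17. All genes share the 36 libraries and their depth.

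The rest of the pathway is given for heat shock in WT by lists chosen with earlier results known, with the 10 genes above left out, beside 42.0% of all genes that rose and 38.1% that fell. The PRPP synthase genes PRS1 to PRS5 all fell, in WT and in the other 3 strains, with a WT median of -1.75. The other 3 de novo genes, ADE5,7, ADE6 and ADE8, all fell. ADE5,7, which encodes an enzyme with 2 early activities, fell by 2.19 ± 0.16, and ADE6, the FGAM synthetase gene, by 1.70 ± 0.12. On the IMP to GMP branch 3 of 4 fell (median -2.90), with the GMP synthetase gene GUA1 at -3.42 ± 0.46.

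Salvage and interconversion was mixed, with 3 genes that rose, 5 that fell and 1 that did not pass (median -0.28). The adenine phosphoribosyltransferase gene APT1 fell by 2.79 ± 0.15, while the guanine deaminase gene GUD1 rose by 2.42 ± 0.12 and the IMP nucleotidase gene ISN1 by 1.27 ± 0.06. The xanthine phosphoribosyltransferase gene XPT1 stood at -0.05 ± 0.07. Among 5 transporters 1 fell and 4 did not pass (median -0.35). Among 4 nucleotide kinase genes 1 rose and 2 fell (median -0.44). Of the regulators, BAS1 fell by 1.53 ± 0.43 and GCN4 by 1.21 ± 0.09, and PHO2 rose by 0.52 ± 0.11, with the same directions in all 4 strains.

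**Figure D5:**
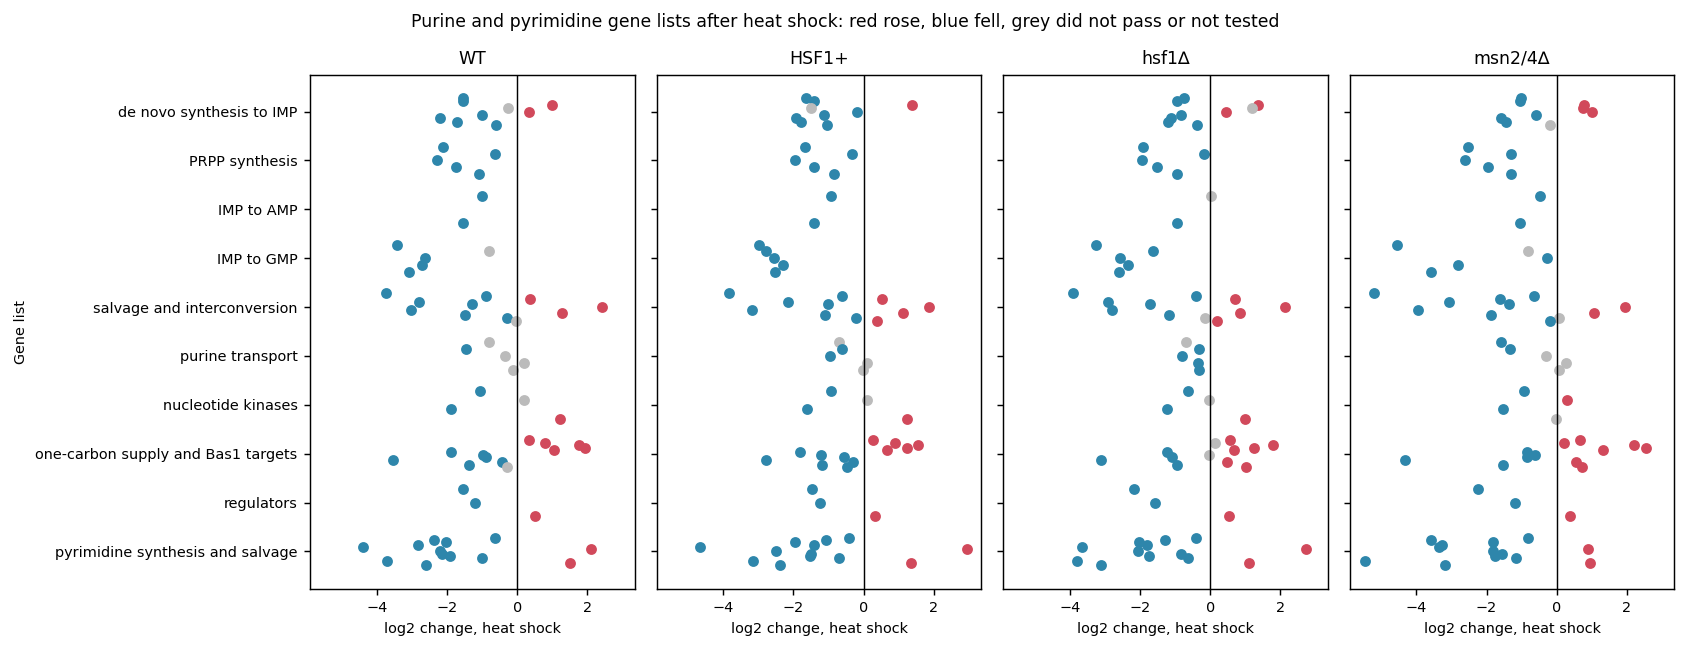
log2 change after heat shock (horizontal axis) of each gene in purine and pyrimidine lists (rows) for the 4 strains (panels). Each point is a gene, red where it rose, blue where it fell and grey where it did not pass at an edgeR adjusted p of 0.05 or, for ADE17 in HSF1+ and hsf1∆, was not tested; the 5 PRPP synthesis genes are blue in every panel.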

How the data were processed

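Poly-A-selected TruSeq libraries of total RNA were sequenced on a NovaSeq instrument, per the labels' protocols. Trim Galore, FastQC, STAR, Salmon and build R64 are named, per the submitters' processing notes. The authors deposited raw counts per gene, with no normalization. The sources used here do not give the counting tool, its strand setting or its handling of shared reads. The labels say that cells were grown in triplicate, so p-values measure the spread between those cultures.

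Low counts were filtered by filterByExpr (6109 of 7126 genes kept). Counts were scaled by TMM and fitted in R 4.3.3 with edgeR 4.0.16 as 1 quasi-likelihood model of 12 group means over 36 libraries, with no block. A call needed an adjusted p (Benjamini-Hochberg over all genes tested) below 0.05, and counts are given also with a 2-fold minimum. In contrasts between strains or responses, higher and lower give the sign of the difference. With 3 libraries a group, the spread between replicates limits precision more than depth. The fit was also run on simulated data with known fold changes set for heat shock in WT. These were drawn from its own fitted means and dispersions, without a replicate effect, and the outcome is not given here. The simulation therefore does not speak to libraries of the same replicate number that vary together.

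The genes named are the 10 members, the pathway lists and the 5 genes most like ADE17, AAH1 and HPT1. The members, lists, tests and alternatives were chosen with earlier results of these data known.

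Alternatives were RLE size factors, library size alone, no filter, DESeq2 1.42.0, the replicate number as a block, only the groups compared, thinned deep libraries, replicates 2 and 3 alone, and leaving out each library. The 2-fold minimum for untreated strains and response differences was added after seeing the data. Pairing of same-numbered libraries was checked by correlating their deviations from group means over genes. All 3 correlations were over 0.1 for heat shock in WT (0.117 to 0.361) and for the 3 untreated contrasts with WT (0.15 to 0.337). They were also over 0.1 for heat-shocked hsf1∆ against HSF1+ (0.337 to 0.616), for AzC in WT, and for AzC against heat shock in all strains but hsf1∆. They were not in every pair for the other contrasts of 2 groups. The 250 bases before and 50 bases from each start codon were read from RefSeq R64, in which 6048 gene names of the table were matched and 1078 were not.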

Additional observations from a re-analysis of the deposited data

Results flagged for a closer look

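The heat-shock responses below differed between strains by a test of the difference itself (edgeR quasi-likelihood interaction, adjusted p below 0.05, 3 libraries a group), given as log2 differences from the WT response. In the labelled msn2/4∆ strain IMD2 differed by 2.33, ADE17 by 0.995, ADE2 by 0.67, ADE12 by 0.55, ADE1 by 0.52 and ADE13 by 0.50. In hsf1∆ cells ADE12 differed by 1.02, ADE1 by 0.78, ADE13 by 0.60 and ADE16 by 0.36. In HSF1+ cells ADE2 differed by -0.53. Of all genes, 16.3% were higher and 13.9% lower in labelled msn2/4∆, 11.8% and 20.9% in hsf1∆, and 4.21% and 7.56% in HSF1+. The ADE1 call in labelled msn2/4∆ and the ADE16 call in hsf1∆ were lost when some of the libraries were left out, as given above.

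For ADE17, all heat-shocked hsf1∆ libraries were above the untreated ones, and all heat-shocked HSF1+ libraries were below theirs. The difference between these responses, 2.70, was not tested. The untreated difference of hsf1∆ from HSF1+, on which ADE17 was chosen, was -2.45, and the heat-shocked one 0.25. Heat-shocked ADE2 libraries were likewise above the untreated ones in hsf1∆ and below them in HSF1+, with a difference of 0.63 that was not tested.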

How the results depend on the processing

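No call changed direction under any alternative. Of 240 member values, 44 changed sign under at least 1, none of them called and all within 0.392 of 0. The HPT1 response difference of hsf1∆ from WT went from 0.24 to -0.39 without hsf1∆ heat-shocked replicate 1. Of 168 counts of genes among the 10 members, 154 stayed within 1.5 times the reported count. With a 2-fold minimum the members called became 4 for heat shock in hsf1∆, 5 in labelled msn2/4∆, 1 for untreated HSF1+ and 3 for untreated hsf1∆ against WT. For the response differences from WT they became 0 in HSF1+, 1 in hsf1∆ and 1 in labelled msn2/4∆. The cause of the shifts below was not tested. Leaving out single libraries gave 2 to 5 members for untreated HSF1+ (2 without HSF1+ replicate 3, 3 without WT replicate 2) and 38 to 59 genes of all for untreated labelled msn2/4∆. For the HSF1+ response difference it gave 1 to 2 members and 483 to 1261 genes of all (1261 without WT heat-shocked replicate 1). With the replicate block, members called were 2 for the HSF1+ and 10 for the labelled msn2/4∆ response difference, all genes called were 1299 for the first, against 719, and for untreated labelled msn2/4∆ 30 genes were higher and 89 lower, against 16 and 48. Replicates 2 and 3 alone gave 2 members and 1154 genes for the HSF1+ response difference, library size alone 1103 genes and only the groups compared 384. Scaling by library size alone moved the median of all genes in labelled msn2/4∆ from 0.11 to 0.27 with heat shock and from 0.05 to 0.25 with AzC, and in WT with AzC from 0.02 to 0.16. For the response differences that scaling gave 523 higher and 1513 lower in hsf1∆ and 1368 and 659 in labelled msn2/4∆, against 721 and 1274 and 995 and 847. Leaving out any 1 untreated hsf1∆ library turned the hsf1∆ split to more higher than lower (1022 and 836, 992 and 858, 981 and 804). For untreated labelled msn2/4∆ against WT the split was 5 and 38 with only the groups compared.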

Other observations

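Pyrimidine genes fell with heat shock as well. Of 13 genes of pyrimidine synthesis and salvage, 11 fell and 2 rose in each of the 4 strains (edgeR adjusted p below 0.05), where 34.0% to 38.4% of all genes fell and 38.2% to 43.5% rose. In WT the dihydroorotate dehydrogenase gene URA1 fell by 4.38 ± 0.27 on the log2 scale and the CTP synthase gene URA7 by 3.72 ± 0.56. The genes that rose were URA8, which encodes a second CTP synthase, by 1.51 ± 0.14 and URA10, which encodes an orotate phosphoribosyltransferase, by 2.10 ± 0.15.

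Among genes of one-carbon supply and Bas1 targets, 5 of 12 rose, 6 fell and 1 did not pass in WT, beside 42.0% of all genes that rose and 38.1% that fell. The glycine cleavage genes GCV1 and GCV2 rose by 1.75 ± 0.12 and 1.93 ± 0.13, and MIS1, a mitochondrial folate enzyme gene, fell by 3.55 ± 0.31. SHM2 stood at -0.29 ± 0.14 in WT (edgeR adjusted p = 0.0525), rose by 1.01 ± 0.14 in hsf1∆ and by 0.72 ± 0.14 in labelled msn2/4∆, and fell by 0.47 ± 0.14 in HSF1+. The AMP deaminase gene AMD1 was at 168 ± 13.3 CPM in untreated WT and 216 ± 7.76 after heat shock, but at 165 ± 8.77 and 54.0 ± 13.2 in labelled msn2/4∆. Its response there differed from that of WT by -1.97 ± 0.13 (edgeR adjusted p = 4.75e-12).

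AzC set directly against heat shock in WT gave ADE17 at -2.41 ± 0.15 and IMD2 at 2.21 ± 0.13 (log2 AzC over heat shock), without overlap. AAH1 and HPT1 stood at 0.20 ± 0.44 and -0.22 ± 0.33, with overlapping libraries. Without WT heat-shocked replicate 1 AAH1 stood at 1.41. The treatments differ in duration and temperature.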
